A study of Arabidopsis thaliana with 24 samples.

Results

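The genes described here are 8 genes of Arabidopsis thaliana that are known to be switched on when plant cells run short of sugar, in darkness or in ageing leaves. They are ASN1 (AT3G47340), GDH1 (AT5G18170), GDH2 (AT5G07440), SEN1 (AT4G35770), BGLU30 (AT3G60140, also called DIN2), DIN10 (AT5G20250), DIN11 (AT3G49620) and AKINBETA1 (AT5G21170). They were chosen by locus, as probe sets that the deposited annotation assigns to one of these loci alone, and each of the 8 loci had 1 such probe set among the 22746 probe sets tested, which name 16928 genes. No measured value entered the choice of a probe set, but the 8 genes themselves were chosen with earlier results of these data known. Shares over all probe sets given beside their counts therefore show scale and are no independent support.

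When sugar is scarce, a plant cell represses growth and starts to respire protein, lipid and cell wall material in its place. Much of this switch is attributed to SnRK1, a protein kinase related to yeast Snf1 and animal AMPK, and to the bZIP transcription factors that act with it. Asparagine synthetase stores the nitrogen set free from amino acids in a molecule with little carbon, glutamate dehydrogenase returns the carbon skeleton of glutamate to respiration, and the DIN (dark inducible) genes were named for their rise in leaves kept in the dark. In roots, sugar arrives from the shoot through the phloem, so that these genes are commonly read as markers of carbon supply.

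The study measured root RNA on 24 one-colour Affymetrix arrays, to follow how roots respond to a loss of phosphate (Pi). Plants 30 days old, grown in aerated nutrient solution with 1.5 mM Pi and 3 mM nitrate, had their roots rinsed in 0.1 mM EDTA and were moved to solution without Pi (minus Pi) or with 1.5 mM Pi (plus Pi), 1 h after the lights came on. Roots were taken at 0, 1, 6 and 24 h after that transfer, about 20 plants for each time, which gave 8 groups of 3 arrays. The whole experiment was run 3 times and each experiment gave 1 array of every group, so that an array is named here by its group and its experiment. The labels name no ecotype, mutant or transgene, and all groups share the same light cycle, rinse and transfer. With a day of 10 h light and 14 h dark, the 6 h roots were taken 7 h into the light period, and the 24 h roots at the same hour of day as the 0 h roots, after a night. Within a supply, the time since transfer, the hour of day and the handling at transfer therefore cannot be told apart, whereas minus Pi and plus Pi roots of 1 time share all of these.

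The values are on a log2 scale as deposited, so a difference of 1 is a 2-fold change, and levels of different genes are not set against each other. The medians of the arrays lay between 6.345 and 6.454, and replicate arrays correlated with r between 0.950 and 0.992. A gene of a list is called measured here when a probe set is assigned to it alone. The other list genes may be among the 4971 probe sets left unnamed or the 672 naming several genes. Of the 7 root markers measured, PYK10, a beta-glucosidase of root ER bodies, read 10.9 to 12.8, between the 97.2th and the 99.8th percentile of its array. TIP2;3 read 9.16 to 11.03. SHR and SCR, which pattern the root ground tissue, read 7.71 to 8.30 and 7.81 to 8.86. EXPA7, SHV2 and PRP3 went lower, down to 5.37, 6.40 and 6.38 (the 36.8th, 49.6th and 49.4th percentiles). Of 16 leaf photosynthesis markers 7 were measured, and LHCB4.1 reached 8.16 (the 77.1th percentile), within the range of SHR. The mean over the 7 was 5.17 to 6.76 on the 24 arrays, and the highest was the plus Pi array of experiment 1 at 6 h. That array also had the highest plus Pi reading of 6 h for all 8 genes described here. The Pi effects and time differences that moved most with it are therefore also given without it. Leaving it out raises each Pi effect at 6 h and lowers each plus Pi rise to 6 h by construction. Values without it thus describe its weight and are no separate support. Because whole roots were extracted, fewer cells of a type and less RNA per cell cannot be told apart. Minus Pi less plus Pi at 1 time is called the Pi effect, a gene is called when its limma p-value, adjusted over all 22746 probe sets, is under 0.05, and SE is the standard error of a log2 difference from that fit.

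At 6 h without Pi, 3 of the 8 genes were higher than in plus Pi roots: ASN1 by 3.44 (10.8-fold), GDH2 by 1.89 (3.70-fold) and GDH1 by 1.06 (2.08-fold). The other 5 genes had positive mean differences, from 0.30 for AKINBETA1 to 2.06 for BGLU30, and did not pass the test. Over all probe sets 3.97% were called higher and 5.69% lower at 6 h, and the median Pi effect was -0.02 against 1.68 over the 8 genes. None of the 8 was called at 0, 1 or 24 h, where 0%, 1.13% and 0.321% of all probe sets were called. A fit that also takes the experiment as a block, here called the blocked fit, called the same 3 genes at 6 h, beside 9.34% of probe sets called higher.

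**Figure D1:**
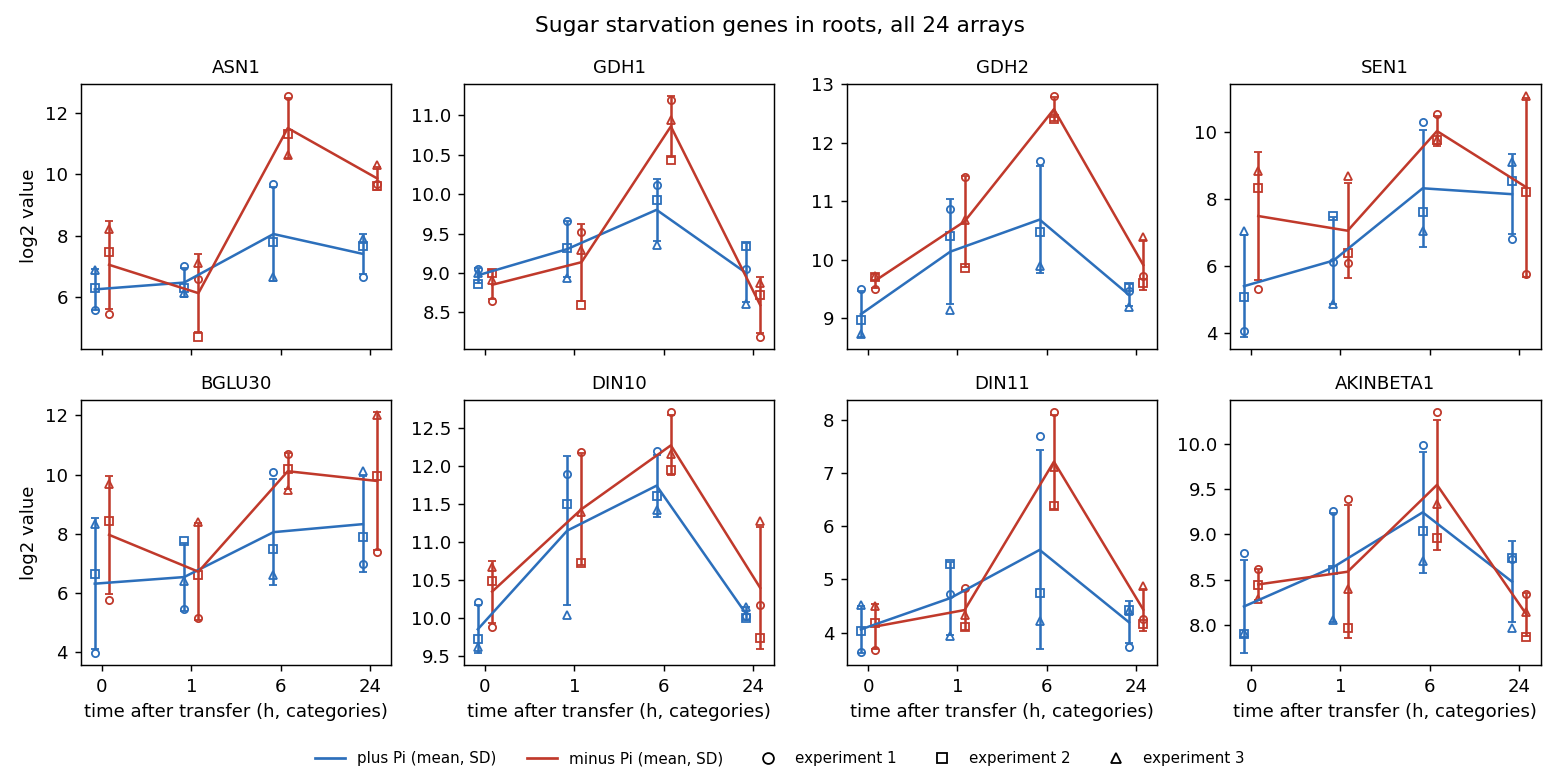
Log2 values of the 8 genes on all 24 arrays, by time after transfer (h, drawn as categories) and Pi supply. Symbols are single arrays of experiments 1, 2 and 3, lines join the group means and bars are the SD over 3 arrays; the minus Pi mean of ASN1 goes from 6.14 at 1 h to 11.50 at 6 h while the plus Pi mean goes from 6.48 to 8.06.

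ASN1 encodes a glutamine-dependent asparagine synthetase, which moves the amide nitrogen of glutamine to aspartate, and it showed the largest Pi effect of the 8 genes at 6 h. At that time it read 9.70, 7.81 and 6.67 on the plus Pi arrays of experiments 1, 2 and 3, and 12.55, 11.32 and 10.63 on the minus Pi arrays. Every minus Pi array thus lay above every plus Pi array, as for 11.0% of all probe sets, and in each experiment the minus Pi array was higher, by 2.85, 3.50 and 3.96. The Pi effect of 3.44 (SE 0.772, adjusted p = 0.00838) was the 16th highest of the 22746 probe sets. In minus Pi roots ASN1 lay between the 96.7th and the 99.6th percentile of its arrays at 6 h, after a place between the 25.0th and the 60.5th at 1 h. The SD over 3 arrays was 0.973 without Pi and 1.53 with Pi.

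Before 6 h the ASN1 values gave no such separation. At 0 h it read 5.59, 6.30 and 6.91 with Pi and 5.47, 7.48 and 8.23 without, and at 1 h 7.02, 6.29 and 6.14 with Pi and 6.59, 4.72 and 7.11 without. The arrays of both supplies overlapped at these times, and the Pi effects were 0.80 (adjusted p = 1.0) and -0.34 (adjusted p = 0.973). At 24 h ASN1 read 6.67, 7.67 and 7.91 with Pi and 9.67, 9.63 and 10.29 without Pi. The minus Pi arrays again lay above all plus Pi arrays, as for 6.62% of all probe sets, with differences of 3.00, 1.97 and 2.38 in the 3 experiments, but the Pi effect of 2.45 (SE 0.772, 95% interval 0.83 to 4.07) had an adjusted p of 0.251, and of 0.0937 in the blocked fit. It was the 25th highest mean difference at 24 h.

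The time course of ASN1 without Pi was steep. From 1 h to 6 h it rose by 5.35 (SE 0.772, adjusted p = 0.00015), a 40.9-fold change and the largest rise of all 22746 probe sets in that interval. Against 0 h the rise was 4.43 (21.6-fold, adjusted p = 0.000611), with 7.08, 3.83 and 2.39 in the 3 experiments, and it passed the test under each of 18 alternatives. Between 6 and 24 h ASN1 differed by -1.63 (adjusted p = 0.2), and the 24 h value stayed 2.80 above that of 0 h (adjusted p = 0.0607, or 0.0308 in the blocked fit, which called 4.87% of probe sets higher there). With Pi, ASN1 at 6 h differed from 0 h by 1.80 (SE 0.772, adjusted p = 0.352), and the experiments gave 4.11, 1.52 and -0.24. The Pi effect at 6 h exceeded that at 1 h by 3.78 (SE 1.09), with 3.28, 5.07 and 2.99 in the experiments; this difference of differences had an adjusted p of 0.0915, where 1.47% of probe sets were called, and of 0.0428 in the blocked fit, where 9.05% were called.

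GDH1 and GDH2 encode the beta and alpha subunits of the mitochondrial NAD-dependent glutamate dehydrogenase. At 6 h GDH2 read 11.69, 10.48 and 9.90 on the plus Pi arrays and 12.81, 12.41 and 12.51 on the minus Pi arrays. The minus Pi arrays sat within 0.40 of each other, while the plus Pi arrays spanned 1.79, and the groups did not overlap. The Pi effect was 1.89 (SE 0.444, adjusted p = 0.0111), with 1.12, 1.93 and 2.61 in the experiments. GDH1 read 10.11, 9.93 and 9.36 with Pi and 11.20, 10.43 and 10.94 without Pi at the same time. Its groups did not overlap either, and its smaller Pi effect of 1.06 (adjusted p = 0.0189) came with a smaller SE of 0.272. The GDH1 arrays of 6 h spanned 0.75 with Pi, less than for GDH2, and 0.76 without Pi, more than for GDH2.

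At 0 h GDH1 read 9.05, 8.86 and 9.00 with Pi and 8.64, 9.00 and 8.91 without, a Pi effect of -0.12 (95% interval -0.69 to 0.45). GDH2 read 9.50, 8.98 and 8.74 with Pi and 9.51, 9.71 and 9.72 without, which left all minus Pi arrays above the plus Pi arrays, by as little as 0.01 in experiment 1. That pattern held for 2.37% of all probe sets at 0 h, and the Pi effect of GDH2 there was 0.57 (SE 0.444, adjusted p = 1.0). At 1 h GDH2 read 10.88, 10.40 and 9.14 with Pi and 11.43, 9.86 and 10.69 without, and GDH1 read 9.66, 9.31 and 8.94 with Pi and 9.52, 8.59 and 9.30 without. All of these overlapped between the supplies.

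At 24 h both GDH genes were back near their 0 h values. GDH1 read 9.06, 9.35 and 8.60 with Pi and 8.19, 8.72 and 8.87 without Pi, a Pi effect of -0.41 (95% interval -0.98 to 0.16). GDH2 read 9.47, 9.54 and 9.19 with Pi and 9.73, 9.61 and 10.39 without Pi, a Pi effect of 0.51 (95% interval -0.42 to 1.44). In minus Pi roots the fall from 6 to 24 h passed the test for both: GDH1 fell by 2.26 (SE 0.272, adjusted p = 3.35e-05) and GDH2 fell by 2.66 (SE 0.444, adjusted p = 0.000719).

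The rise of GDH1 from 0 to 6 h was 2.01 without Pi (4.02-fold, adjusted p = 6.69e-05), against a difference of 0.83 with Pi (SE 0.272, adjusted p = 0.151). The Pi effect of GDH1 at 6 h exceeded that at 1 h by 1.22, 1.22 and 1.23 in the 3 experiments, nearly the same value each time, with a mean of 1.22 (SE 0.385, adjusted p = 0.127, or 0.054 in the blocked fit). From 6 to 24 h the Pi effect of GDH1 differed by -1.47 (SE 0.385, adjusted p = 0.129), where 0.259% of probe sets were called, and it passed in the blocked fit (adjusted p = 0.0456), where 3.23% were called. GDH2 rose by 2.93 from 0 to 6 h without Pi (7.63-fold, adjusted p = 0.000185) and differed by 1.62 with Pi (SE 0.444, adjusted p = 0.0667), a difference that passed in the blocked fit (adjusted p = 0.0156).

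The 3 calls at 6 h depended on which arrays entered the fit. When the fit held only the arrays compared, the adjusted p was 0.0751 for ASN1, 0.0823 for GDH1 and 0.0667 for GDH2, and without experiment 2 it was 0.197, 0.0873 and 0.213, so that none passed while the differences were 3.40, 1.33 and 1.87. When the plus Pi array of experiment 1 was left out, the Pi effects at 6 h were 4.26 for ASN1, 1.21 for GDH1 and 2.39 for GDH2. All 3 passed, but leaving out the highest plus Pi array raises these effects by construction.

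**Figure D2:**
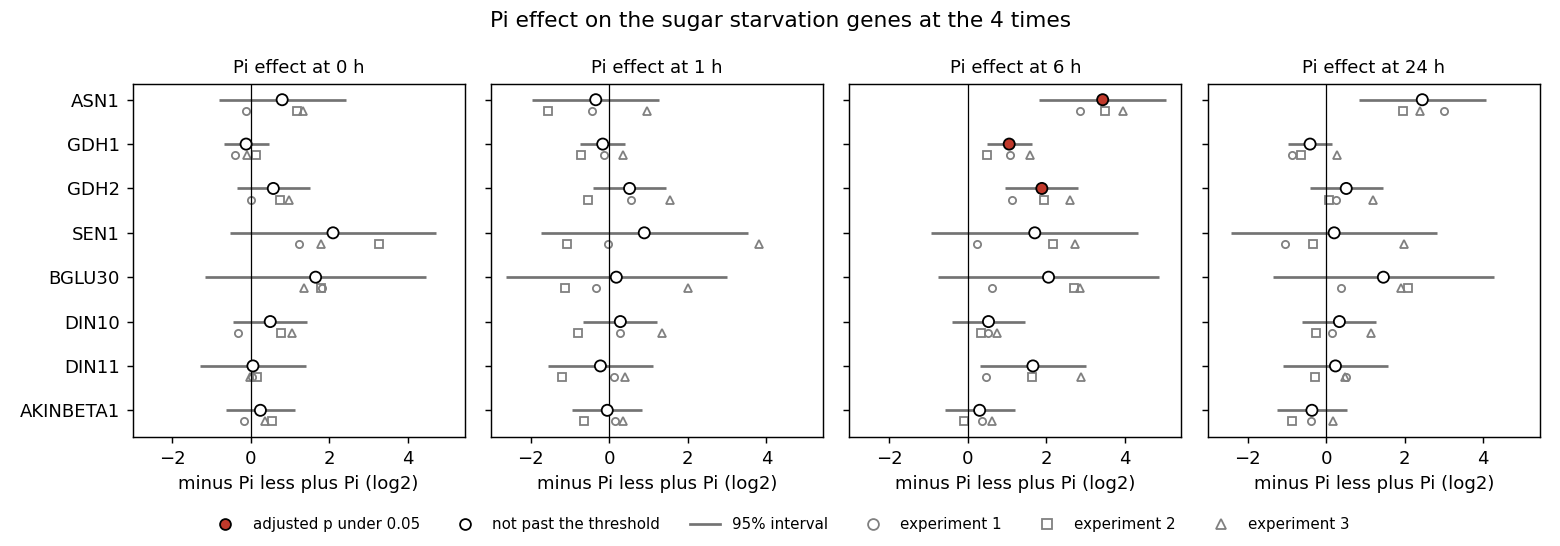
Pi effect (minus Pi less plus Pi, log2) of the 8 genes at 0, 1, 6 and 24 h. Large circles are means with 95% intervals from the limma fit, filled where the adjusted p is under 0.05, and small symbols are the differences within experiments 1, 2 and 3; only ASN1 (3.44), GDH2 (1.89) and GDH1 (1.06), all at 6 h, are filled.

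SEN1 and BGLU30 spread widely among the experiments, with an SD over the 3 arrays of a group of 0.452 to 2.67 for SEN1 and 0.609 to 2.33 for BGLU30. SEN1 encodes a protein with a rhodanese-like domain that accumulates in dark-treated and ageing leaves, and BGLU30 encodes a glycoside hydrolase family beta-glucosidase. At 6 h SEN1 read 10.30, 7.60 and 7.03 with Pi and 10.54, 9.76 and 9.75 without Pi. BGLU30 read 10.07, 7.47 and 6.62 with Pi and 10.68, 10.18 and 9.47 without Pi. For both genes the plus Pi array of experiment 1 reached into the minus Pi values, and the other plus Pi arrays lay well below them. The Pi effects were 1.71 for SEN1 (SE 1.25, adjusted p = 0.492) and 2.06 for BGLU30 (SE 1.34, adjusted p = 0.417). Without that plus Pi array they were 2.70 (adjusted p = 0.273) and 3.07 (adjusted p = 0.243), which did not pass either.

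At 0 h, when roots were taken directly at transfer, SEN1 read 4.06, 5.06 and 7.04 with Pi and 5.29, 8.33 and 8.83 without Pi. Its mean difference of 2.09 (4.27-fold) was the highest of all 22746 probe sets at 0 h, with 1.23, 3.26 and 1.79 in the 3 experiments. BGLU30 read 3.97, 6.64 and 8.34 with Pi and 5.77, 8.43 and 9.69 without Pi at 0 h, a difference of 1.65 that was the 8th highest and was nearly even over the experiments, with 1.81, 1.79 and 1.35. Within each experiment the minus Pi array was the higher one for both genes, yet the supplies overlapped and neither passed, with an SE of 1.25 and 1.34 and an adjusted p of 1.0. No probe set at all passed at 0 h by limma, where 301 had an unadjusted p under 0.05. For ASN1, SEN1 and BGLU30, a Pi effect at a later time therefore stands beside a 0 h difference of 0.80, 2.09 and 1.65.

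At 24 h without Pi, SEN1 read 5.75, 8.19 and 11.08 and BGLU30 read 7.37, 9.96 and 12.02 in experiments 1, 2 and 3. With Pi the values were 6.79, 8.52 and 9.10 for SEN1 and 6.98, 7.88 and 10.12 for BGLU30. In both supplies experiment 1 was the lowest and experiment 3 the highest, the reverse of 6 h, when experiment 1 was the highest. The Pi effects at 24 h were 0.20 for SEN1 (95% interval -2.43 to 2.84) and 1.46 for BGLU30 (95% interval -1.35 to 4.26). At 1 h SEN1 read 6.11, 7.48 and 4.87 with Pi and 6.07, 6.39 and 8.68 without Pi, and BGLU30 read 5.47, 7.74 and 6.40 with Pi and 5.14, 6.61 and 8.40 without Pi. Those differences ranged from -1.09 to 3.81 for SEN1 and from -1.13 to 1.99 for BGLU30 among the experiments.

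No change with time passed for SEN1, and for BGLU30 none passed without the block. SEN1 had the highest mean difference of all probe sets between 24 and 0 h in plus Pi roots (2.75, SE 1.25, adjusted p = 1.0), where BGLU30 was the 3rd highest (2.01), and all 3 experiments were above 0 for both. Without Pi, BGLU30 differed between 6 and 1 h by 3.40 (SE 1.34, adjusted p = 0.0955), with 5.54, 3.57 and 1.07 in the experiments. The blocked fit called that rise (adjusted p = 0.0325). In the same interval SEN1 differed by 2.97 (adjusted p = 0.121, or 0.0637 in the blocked fit).

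DIN10, a gene of the raffinose synthase family, rose from 0 to 6 h in both supplies. At 0 h it read 10.21, 9.73 and 9.62 with Pi and 9.89, 10.49 and 10.66 without. At 6 h it read 12.20, 11.60 and 11.42 with Pi and 12.71, 11.94 and 12.16 without, so every 6 h array lay above every 0 h array in either supply, as for 6.66% of all probe sets with Pi and 15.4% without. The rise was 1.89 with Pi (SE 0.449, 3.70-fold, adjusted p = 0.0283) and 1.92 without Pi (3.79-fold, adjusted p = 0.00564). The Pi effect differed between 6 and 0 h by 0.04, with a 95% interval of -1.30 to 1.37 that leaves room for changes in either direction. The rise with Pi was 1.99, 1.87 and 1.80 in the 3 experiments, and its call rested on few arrays: without the plus Pi array of experiment 1 at 6 h it was 1.66 with an adjusted p of 0.159.

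Already at 1 h DIN10 read 11.90, 11.50 and 10.04 with Pi and 12.18, 10.72 and 11.39 without Pi, higher than 0 h by 1.30 (adjusted p = 0.548) and 1.08 (adjusted p = 0.427) in the mean. In experiments 1, 2 and 3 that difference was 1.69, 1.78 and 0.42 with Pi and 2.29, 0.23 and 0.72 without Pi. By 24 h DIN10 read 10.03, 9.99 and 10.15 with Pi and 10.17, 9.73 and 11.28 without Pi, which lay close to 0 h. It fell by 1.87 between 6 and 24 h without Pi (adjusted p = 0.00948), and with Pi it differed by -1.68 (adjusted p = 0.0871, or 0.0374 in the blocked fit). The Pi effects of DIN10 were 0.49, 0.28, 0.53 and 0.34 at 0, 1, 6 and 24 h, with adjusted p-values of 0.576 and above.

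DIN11, which encodes a protein of the 2-oxoglutarate-dependent dioxygenase family, was dim at every time but 6 h. At 0 h it read 3.63, 4.03 and 4.53 with Pi and 3.67, 4.18 and 4.50 without, and at 24 h 3.74, 4.43 and 4.41 with Pi and 4.25, 4.16 and 4.88 without. At these times it stood between the 4.64th and the 29.1th percentile of its arrays, and the supplies overlapped. At 6 h without Pi it read 8.15, 6.39 and 7.11, and with Pi 7.70, 4.75 and 4.23. In plus Pi roots only experiment 1 lay above 5 at that time, and its value of 7.70 fell inside the minus Pi range.

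Without Pi, DIN11 rose by 3.10 from 0 to 6 h (SE 0.641, adjusted p = 0.00238) and fell by 2.79 from 6 to 24 h (adjusted p = 0.00739). No fold is given for this gene, since it was dim at 0 h and the values used here carry no detection call. With Pi the difference between 6 and 0 h was 1.50 (adjusted p = 0.35), made of 4.07, 0.72 and -0.30 in the 3 experiments. The Pi effect at 6 h was 1.66 (SE 0.641, unadjusted p = 0.0183, adjusted p = 0.116), with 0.46, 1.64 and 2.89 in the experiments. When the plus Pi array of experiment 1 was left out, it was 2.73 (adjusted p = 0.00219), and without all arrays of experiment 1 it was 2.26 (adjusted p = 0.017). Leaving out the highest plus Pi array raises the effect by construction, so these values show only that the outcome turned on that array. At 1 h DIN11 read 4.73, 5.29 and 3.93 with Pi and 4.84, 4.10 and 4.33 without, a Pi effect of -0.22 (adjusted p = 0.981).

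AKINBETA1 encodes a regulatory beta subunit of the SnRK1 complex. At 6 h it read 9.99, 9.04 and 8.70 with Pi and 10.36, 8.96 and 9.33 without Pi, and the supplies overlapped. The Pi effect at 6 h was 0.30 (95% interval -0.58 to 1.19, adjusted p = 0.787), and those at 0, 1 and 24 h were 0.24, -0.05 and -0.36. What stood out in this gene was the experiment: 33.7% of its variance over the 24 arrays lay between the 3 experiments, whose means were 9.18, 8.44 and 8.35. At 0 h it read 8.80, 7.90 and 7.91 with Pi and 8.62, 8.44 and 8.28 without, at 1 h 9.26, 8.61 and 8.05 with Pi and 9.40, 7.97 and 8.40 without, and at 24 h 8.73, 8.74 and 7.96 with Pi and 8.34, 7.87 and 8.14 without. Experiment 1 had the highest value of its group in 7 of the 8 groups.

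Taking the experiment as a block changed calls of AKINBETA1 with time. The difference between 6 and 0 h was 1.10 without Pi (adjusted p = 0.0801, or 0.00228 in the blocked fit) and 1.04 with Pi (adjusted p = 0.304, or 0.0146 in the blocked fit). Between 6 and 1 h without Pi it was 0.96 (adjusted p = 0.139, or 0.00652 in the blocked fit), with 0.96, 0.99 and 0.93 in the experiments. From 6 to 24 h AKINBETA1 fell by 1.43 without Pi (adjusted p = 0.031) and differed by -0.77 with Pi (adjusted p = 0.766, or 0.109 in the blocked fit).

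Between 0 and 6 h without Pi, ASN1, GDH1, GDH2, DIN10 and DIN11 rose, 5 of 8 beside 8.51% of all probe sets called higher, and the blocked fit added AKINBETA1, 6 of 8 beside 15.3%. All 8 means were above 0, with a median of 2.34 against -0.02 over all probe sets. From 1 to 6 h without Pi, ASN1, GDH1, GDH2 and DIN11 rose, 4 of 8 beside 7.80%, and the blocked fit called 6 of 8 beside 14.8%. From 6 to 24 h without Pi, GDH1, GDH2, DIN10, DIN11 and AKINBETA1 fell, 5 of 8 beside 5.67% of all probe sets called lower. The median over the 8 genes in that interval was -1.78 against 0.02.

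With Pi, the mean differences between 6 and 0 h were 0.83 to 2.92, with a median of 1.68 against 0.01 over all probe sets. With the plus Pi array of experiment 1 at 6 h left out, the differences were 0.98 for ASN1, 1.93 for SEN1, 0.73 for BGLU30, 0.43 for DIN11, 1.12 for GDH2, 0.67 for GDH1, 0.67 for AKINBETA1 and 1.66 for DIN10, and none passed (adjusted p = 0.159 for DIN10 and higher for the others). In experiment 3, ASN1, SEN1, BGLU30 and DIN11 differed by -0.24, -0.01, -1.72 and -0.30. With all arrays only DIN10 passed, 1 of 8 beside 0.879% of all probe sets called higher, and the blocked fit called DIN10, GDH2 and AKINBETA1, 3 of 8 beside 2.93%. From 6 to 24 h with Pi none passed, where 0.426% of probe sets were called lower, and the blocked fit called DIN10, beside 1.49%. Between 0 and 1 h none of the 8 genes passed in either supply, where 0.356% of all probe sets were called with Pi and 1.01% without. The 2 supplies share no arrays, and whether their time courses differ is answered by the differences of the Pi effect between times, of which none passed for any of the 8 genes in the fit without a block on all 24 arrays. With the plus Pi array of experiment 1 at 6 h left out, the difference from 0 to 6 h passed for DIN11 (2.68, adjusted p = 0.0406), and that from 1 to 6 h passed for DIN11 (2.96, adjusted p = 0.0277) and ASN1 (4.60, adjusted p = 0.038). As that array was the highest, its removal raises these differences by construction, and the passes are no separate support.

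Those differences were 2.64 for ASN1, 1.18 for GDH1, 1.32 for GDH2 and 1.61 for DIN11 between 6 and 0 h, with adjusted p-values of 0.13 to 0.434, where 1.87% of all probe sets were called. For SEN1, BGLU30, DIN10 and AKINBETA1 they were -0.39, 0.41, 0.04 and 0.06. All 3 experiments were above 0 for the first 4 genes. The interval of each of the last 4 was wide, from -4.11 to 3.34 for SEN1 and from -1.20 to 1.32 for AKINBETA1. The intervals of GDH2 (-0.002 to 2.63) and DIN11 (-0.30 to 3.51) also included 0. Those of ASN1 (0.35 to 4.93) and GDH1 (0.37 to 1.98) lay above 0, before adjustment over all probe sets. None of these differences passed in the fit without a block. In that fit a Pi-dependent part of the 6 h rise could not be told from none for any of these genes at this number of arrays.

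**Figure D3:**
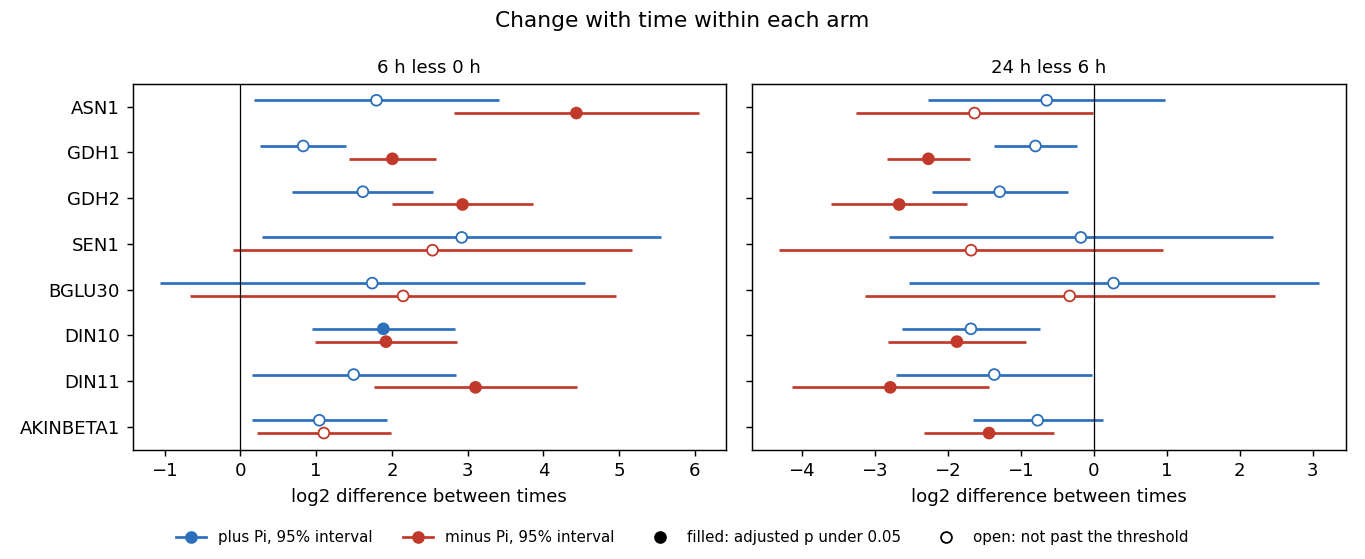
Log2 difference between times within plus Pi (blue) and minus Pi (red) roots for the 8 genes, 6 h less 0 h on the left and 24 h less 6 h on the right, with 95% intervals from the limma fit and filled circles where the adjusted p is under 0.05. On the left 5 minus Pi circles and 1 plus Pi circle (DIN10) are filled; on the right 5 minus Pi circles are filled and no plus Pi circle.

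The order of the group means was led by minus Pi roots at 6 h in all 8 genes. For ASN1 minus Pi roots at 24 h came next (9.86), then plus Pi roots at 6 h (8.06) and 24 h (7.41), and the 4 groups of 0 and 1 h followed between 7.06 and 6.14, a span smaller than the SD of 1.43 in minus Pi roots at 0 h. For GDH1, GDH2, DIN10, DIN11 and AKINBETA1 plus Pi roots at 6 h came next. The step between these leading groups passed for GDH1 and GDH2 and not for DIN10, DIN11 and AKINBETA1. In SEN1 and BGLU30 the minus Pi roots of 24 h were next, at 8.34 and 9.78, and each step in their order was smaller than the larger SD of the 2 groups it lay between.

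The share of variance that lay between the 8 groups was 84.6% for GDH1, 82.5% for ASN1 and GDH2, 74.4% for DIN10 and 68.5% for DIN11. It was 51.6% for AKINBETA1, 50.3% for SEN1 and 46.8% for BGLU30, and the median over all probe sets was 37.9%. Between the experiments lay 0.519% for ASN1, 16.8% for BGLU30 and 33.7% for AKINBETA1, against a median of 23.8%. The experiment means of SEN1 were 6.87, 7.67 and 8.30 and those of BGLU30 6.93, 8.11 and 8.88, in the opposite order to AKINBETA1.

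Across the 24 arrays, which share groups and experiments, the 28 pairs of the 8 genes correlated with Pearson's r between 0.05 and 0.92 (median 0.72). After each array's group mean was taken off, r lay between -0.25 and 0.93 (median 0.58), and 26 of 28 pairs stayed above 0. SEN1 and BGLU30 formed the tightest pair, with r = 0.92 over the values and 0.93 over the deviations. Among the deviations GDH2 followed DIN10 (0.88), AKINBETA1 (0.83) and GDH1 (0.78), but hardly BGLU30 (0.10). ASN1 followed DIN11 (0.75), SEN1 (0.72) and BGLU30 (0.66) more than AKINBETA1 (0.38), and BGLU30 and AKINBETA1 had the lowest r of all pairs (-0.25). These figures describe the 24 arrays and carry no test.

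**Figure D4:**
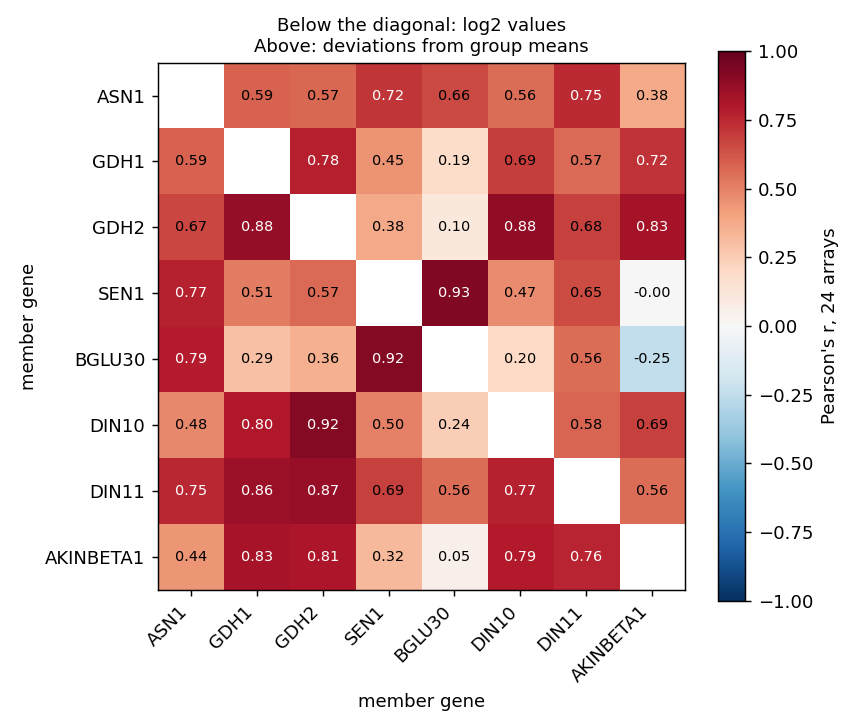
Pearson's r between the 8 genes over 24 arrays, below the diagonal for the log2 values and above it for the deviations from the group means. The darkest cells are SEN1 with BGLU30 (0.92 and 0.93) and GDH2 with DIN10 (0.92 and 0.88), and the only cells at or below 0 are AKINBETA1 with SEN1 and with BGLU30 above the diagonal.

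The genes most like each of the 8 were taken as the 3 probe sets with the highest r over the 24 arrays, the 6 h arrays included, so that their Pi effects at 6 h are a description and no separate evidence. For ASN1 they were PPDK, encoding pyruvate orthophosphate dikinase (r = 0.93), ALDH7B4, an aldehyde dehydrogenase gene (0.92), and SKP2A, an F-box protein gene (0.91). PPDK had a Pi effect of 3.43 at 6 h (SE 0.710, adjusted p = 0.00513) and ALDH7B4 one of 1.36 (SE 0.272, adjusted p = 0.00424), while SKP2A differed by 0.90 (adjusted p = 0.0647). For SEN1 and for BGLU30 the first was the same gene, MCCB, which encodes a subunit of the methylcrotonyl-CoA carboxylase of leucine breakdown (r = 0.92 with each). The list of SEN1 went on with AT3G26510 (0.87) and HGO, a gene of tyrosine breakdown (0.84), and that of BGLU30 with AT4G20930 and UPI (0.87 each).

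For GDH2 and for DIN10 the first was again shared, the protein kinase gene STY46, with r = 0.96 and 0.98, whose Pi effect at 6 h of 1.09 did not pass (adjusted p = 0.129). DIN10 was next most like AT3G15450 (0.96) and AT5G22920 (0.95), and GDH2 like AT5G16120 and AT1G67480 (0.93 each). GDH1 was most like AT1G15330 (0.93), which had a Pi effect of 2.30 at 6 h (SE 0.367, adjusted p = 0.000766), then AT4G27130 (0.93) and AT1G56220 (0.92), whose Pi effects of 0.24 (adjusted p = 0.2) and 0.35 (adjusted p = 0.543) did not pass. DIN11 was most like AT2G38465 and the cold-regulated gene COR27 (0.90 each) and IVD (0.90), the isovaleryl-CoA dehydrogenase gene of leucine breakdown. AKINBETA1 was most like AT5G16110 (0.98), ER-ANT1, an adenine nucleotide transporter gene of the endoplasmic reticulum (0.96), and GBF1, a bZIP factor gene (0.95).

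Of 25 other genes known from dark and sugar starvation 12 were measured. At 6 h 1 of the 12 was higher without Pi: XTH24, encoding a xyloglucan endotransglucosylase/hydrolase of the cell wall, at 10.85 ± 0.865 (SD, n = 3) against 9.06 ± 1.33, a Pi effect of 1.79 (adjusted p = 0.0444). Over all probe sets 3.97% were called higher. The blocked fit called 4 of 12 higher, beside 9.34% of all probe sets. The median Pi effect of the 12 was 0.67. IVD and TAT7, of leucine and tyrosine breakdown, differed by 1.35 (adjusted p = 0.0686) and 0.84 (adjusted p = 0.102).

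Within this list DYL1, AT3G15450 and BT2 rose with time in either supply. DYL1, a dormancy-associated gene, rose from 0 to 6 h by 2.07 with Pi (adjusted p = 0.000224) and by 2.22 without Pi (adjusted p = 3.21e-05), and its Pi effect at 6 h was 0.28 (adjusted p = 0.66). BT2, encoding a BTB and TAZ domain protein, rose by 2.79 with Pi and by 2.00 without, with a Pi effect of 0.05. AT3G15450 rose by 2.48 and 2.47, with a Pi effect of 0.63 (adjusted p = 0.584). In all, 3 of 12 rose from 0 to 6 h with Pi, beside 0.879% of all probe sets, and 6 of 12 without, beside 8.51%. In the blocked fit 5 and 10 rose, beside 2.93% and 15.3%. From 6 to 24 h without Pi 4 of 12 fell, beside 5.67% of all probe sets.

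Of 8 other SnRK1 subunit genes 3 were measured, and none had a called Pi effect at 6 h (median 0.04). KING1, a gamma-type subunit gene, rose by 0.74 from 0 to 6 h without Pi (adjusted p = 0.00984) and fell by 1.07 from 6 to 24 h (adjusted p = 0.00109). With Pi it differed by 0.50 from 0 to 6 h (adjusted p = 0.245), and its Pi effect at 6 h was 0.36 (adjusted p = 0.287).

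Around asparagine, glutamine and glutamate, 10 of 14 further genes were measured. At 6 h 1 was higher and 2 were lower without Pi, beside 3.97% and 5.69% of all probe sets. The median Pi effect of the 10 was -0.28. The other asparagine synthetase genes had Pi effects of the opposite sign to ASN1: ASN2 stood at 7.75 ± 0.117 (SD, n = 3) without Pi against 8.52 ± 0.171 with Pi, a Pi effect of -0.77 (adjusted p = 0.0352), and ASN3 differed by -0.54 (adjusted p = 0.0646, or 0.00312 in the blocked fit). GS2, encoding the plastid glutamine synthetase, was lower by 0.66 on the log2 scale, at 9.55 ± 0.248 against 10.21 ± 0.156 (adjusted p = 0.0111). The asparaginase gene ASPGB1, whose enzyme frees ammonium from asparagine, was higher by 1.84 (SE 0.543, adjusted p = 0.0386). From 0 to 6 h without Pi GS2, ASN2 and ASN3 fell, by 1.04, 0.72 and 0.62, beside 9.85% of all probe sets. With Pi none of the 10 passed.

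Of 10 sugar-induced and sugar-use genes 7 were measured, with a median Pi effect at 6 h of -0.16. At that time 2 were lower without Pi, beside 5.69% of all probe sets. TPS5, a gene of the trehalose 6-phosphate synthase family, differed by -0.46 (SE 0.123, adjusted p = 0.0218) and APL3, a subunit gene of ADP-glucose pyrophosphorylase, by -0.43 (SE 0.130, adjusted p = 0.0437). From 0 to 6 h without Pi both fell, TPS5 by 0.74 and APL3 by 0.66, beside 9.85% of all probe sets. From 6 to 24 h without Pi both rose again, by 1.00 and 0.64. In that interval 24.5% of all probe sets had an unadjusted limma p under 0.05, in either direction. APL3 was dim, at 4.23 ± 0.0420 against 4.66 ± 0.154 at 6 h.

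Of 7 leaf senescence genes 5 were measured. At 6 h 3 were higher without Pi, beside 3.97% of all probe sets (4 beside 9.34% in the blocked fit). They were NAC6 (AT5G39610, also called ORE1), a NAC transcription factor gene of ageing leaves, by 2.61 (SE 0.562, adjusted p = 0.00658), NYC1, of chlorophyll b breakdown, by 1.12 (adjusted p = 0.0161), and SAG101, an acyl hydrolase gene, by 0.96 (adjusted p = 0.00493). At 24 h NYC1 was higher by 1.55 (adjusted p = 0.0147), and NAC6 differed by 2.62 (adjusted p = 0.0517, or 0.00114 in the blocked fit). From 0 to 6 h without Pi the same 3 genes rose, NAC6 by 3.73, NYC1 by 1.17 and SAG101 by 0.72, beside 8.51% of all probe sets. None of the 5 passed with Pi. SAG12, a late senescence protease gene, differed by -0.02 at 6 h.

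The lists of other cell types and of the clock moved as follows. Of the 7 leaf photosynthesis markers none had a called Pi effect at 6 h (median -0.09), and the blocked fit called 1 lower. From 0 to 6 h 1 of 7 rose with Pi, beside 0.879% of all probe sets, and 3 of 7 without, beside 8.51%. On the 3 plus Pi arrays of 6 h their mean was 6.76, 6.02 and 5.45 in experiments 1, 2 and 3, the order of all 8 genes on these arrays, and on the minus Pi arrays 5.88, 5.94 and 5.79. Of 12 root markers 7 were measured, with a median Pi effect at 6 h of -0.52 and none called (2 lower in the blocked fit). Their mean was 8.86 to 9.15 on the plus Pi arrays and 8.27 to 8.73 on the minus Pi arrays, and from 0 to 6 h without Pi 2 of 7 fell, beside 9.85% of all probe sets called lower in that interval. Of 15 clock genes 7 were measured, none with a called Pi effect at 6 h. From 0 to 6 h without Pi 4 rose and 2 fell, beside 8.51% and 9.85% of all probe sets. With Pi 2 rose and 2 fell, beside 0.879% and 1.46%. The part of leaf tissue, root cell makeup and hour of day in the results on the 8 genes was not tested.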

How the data were processed

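Root RNA of 24 samples was measured on Affymetrix arrays, 1 array per sample and 3 per group. The biotin label was added as the RNA was copied to cRNA, per the labels' protocols. The authors' deposited value table holds log2 values between 2.61 and 14.2. The sources used here do not give the summary and normalization of the arrays, detection calls or a depth, so the number of arrays limits the precision. The submitters' processing notes name limma without a version. For each time the authors' deposited table of comparisons lists a log2 fold change, a p-value and a test statistic, which is a score without a set range per the file headers. It gave 3 of the 8 genes an adjusted p under 0.05 at 6 h, ASN1 (0.00841), GDH2 (0.0112) and GDH1 (0.0189), and its log2 differences for the 8 genes matched those reported here within 4e-07. All per-sample columns were used, so 0 were left over.

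The 64 control probe sets were left out. Loci came from the deposited annotation column or, where it was blank, from the platform annotation at GEO, possibly an old one: 17103 probe sets named 1 gene, 672 several and 4971 were unnamed here. Symbols came from NCBI's gene table. No sequences were used. A model with a mean for each of 8 groups was fitted to all 24 arrays with limma 3.58.1 in R 4.3.3 (16 residual degrees of freedom) and p-values were adjusted by the Benjamini-Hochberg method, contrast by contrast, over 22746 probe sets, at a threshold of 0.05. The fit was tested on simulated data with independent noise and no experiment effect, so that test does not cover the pairing of arrays by experiment. An exact permutation of 3 arrays against 3 cannot reach that threshold, so each call draws on a spread estimated from all groups. Deposited arrays of a group come from separate experiments.

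The labels number the experiment, which pairs the arrays: arrays of an experiment deviated together from their group means (mean r = 0.554), the lowest r at 1 time was 0.228, and 22 of 24 arrays correlated best within their own experiment. The fit with this block had 14 residual degrees of freedom. As a random block (statmod 1.5.0) the experiment had a correlation of 0.384.

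The 8 genes and the lists were chosen with earlier results of these data known. Every one of the 8 genes is described. From other lists up to 4 called genes per contrast, by the smallest adjusted p, and for each of the 8 genes the 3 most like it could be named. IVD, TAT7, SAG12, AT3G15450 at 6 h and the SnRK1, ASN3 and NAC6 values that missed the threshold are named besides, with their values known.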

Additional observations from a re-analysis of the deposited data

How the results depend on the processing

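Each result was recomputed under alternatives. These were the experiment as a fixed or random block, a fit on only the arrays compared, median centring and quantile normalization. Others were a fit with no dim probe sets (which drops DIN11), a robust trend fit, and fits without each experiment or array. In experiment 2, 3 arrays have file numbers outside the run (plus Pi 1 h, minus Pi 6 h and minus Pi 24 h). In experiment 3, 2 arrays have a suffix on the file number (minus Pi 1 h and 6 h). What these marks mean is not stated, and a fit without each of these sets of arrays was also made. Of 2957 values of the 8 genes, 2875 kept their side of the threshold, 51 lost a call and 31 gained one. No called value changed direction, and 148 uncalled values changed sign. Of 372 counts of called genes, 334 stayed within 1.5 times the main count.

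With the experiment as a fixed block the count of called genes went from 1 to 3 for plus Pi roots from 0 to 6 h, from 0 to 1 for plus Pi roots from 6 to 24 h, for minus Pi roots from 0 to 24 h and for the differences of the Pi effect from 1 to 6 h and from 6 to 24 h. The random block gave 3, 1, 1, 2 and 1 in these, and 1 from 0 to 6 h (GDH1, adjusted p = 0.047). With only the arrays compared, which leaves fewer degrees of freedom, the counts were 0 for the Pi effect at 6 h, 0 for plus Pi roots from 0 to 6 h and 3 for minus Pi roots from 6 to 24 h. Without dim probe sets they were 2 for plus Pi roots from 0 to 6 h and 1 for minus Pi roots from 0 to 24 h. Without the out-of-run arrays 3 genes fell from 6 to 24 h without Pi, and without the suffixed arrays none rose from 0 to 6 h with Pi. The block changed no other count by over 1.5 times.

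Leaving out an experiment or an array, the count of called genes ranged from 0 to 4 for the Pi effect at 6 h, 0 to 2 and 3 to 6 from 0 to 6 h with and without Pi, 0 to 1 from 0 to 24 h, 1 to 5 from 1 to 6 h and 1 to 5 from 6 to 24 h without Pi, 0 to 1 for the difference of the Pi effect from 0 to 6 h and 0 to 2 from 1 to 6 h. The lowest counts for minus Pi roots came without experiment 2, which removes an array from every group. For the Pi effect at 6 h, ASN1 lost its call without the minus Pi array of experiment 1 (adjusted p = 0.0517), GDH2 without experiment 3 (0.0902) or the plus Pi array of experiment 2 (0.0539) or 3 (0.0559), and GDH1 without experiment 1 (0.0882) or 3 (0.204), the suffixed arrays (0.0721), the minus Pi array of experiment 1 (0.0914) or 3 (0.0607) or the plus Pi array of experiment 3 (0.0847). The call of DIN10 from 0 to 6 h with Pi was lost in 9 of 18 alternatives, among them each fit without an experiment (adjusted p 0.0841 to 0.417). Over the alternatives the Pi effect at 6 h lay between 2.74 and 4.26 for ASN1, 1.49 and 2.39 for GDH2, and 0.79 and 1.33 for GDH1. For the fall from 6 to 24 h without Pi, AKINBETA1 lost its call without any of 5 single arrays (minus Pi 6 h of experiments 1 and 3, minus Pi 24 h of experiments 1, 2 and 3; adjusted p 0.0519 to 0.18), DIN10 without minus Pi 6 h of experiment 1 (0.0537) or 24 h of experiment 2 (0.0615), and DIN11 without minus Pi 6 h of experiment 1 (0.0501).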
